A study of Mus musculus with 16 samples.

Results

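The salt-inducible kinases (Sik1, Sik2 and Sik3), the CREB coactivators they act on (Crtc1, Crtc2 and Crtc3) and the transcription factors Creb1 and Crem were followed in hippocampal RNA from male mice of 2 senescence-accelerated lines, SAM/P-8 and its counterpart SAM/R-1. These 8 genes were chosen by name, and their probes were found through the RefSeq transcript given for each array probe. In all, 7 of the 8 genes were measured, by 16 probes out of 41174 on the array that are not controls. Crtc1 had no probe by this rule and was not analysed here. Of the 16 probes, 15 passed the filter on dim signals, as did 29009 probes of the whole array.

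There were 4 groups of 4 one-colour arrays: SAM/P-8 mice on a diet with CCH (coral calcium hydride), SAM/R-1 mice on the CCH diet, SAM/P-8 mice on the control diet, and SAM/R-1 mice on the control diet. By the labels both lines go back to a pool of AKR/J mice, and they are known as the senescence-prone and senescence-resistant branches of the model. Feeding began at 8 weeks of age and lasted 8 weeks. CCH made up 0.1% of the CE-2 rodent diet that the control groups ate without it.

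The labels number the replicates without tying them to separate animals, and p-values therefore cover the spread between these arrays alone, which may be technical. All 4 arrays of a group were on the same slide, scanned apart from the other groups, so a slide difference and a group difference cannot be told apart here. Levels are log2 signals relative to the 75th percentile of the array, and differences are SAM/P-8 minus SAM/R-1 or CCH diet minus control diet. A probe was called where the Benjamini-Hochberg adjusted p of limma, over all probes tested, was under 0.05. The genes were picked with results of these arrays known, so their p-values are not independent evidence. In whole tissue, fewer cells of a type and less RNA per cell cannot be told apart.

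The salt-inducible kinases are relatives of AMP-activated protein kinase that phosphorylate the CRTC coactivators, which are then held in the cytoplasm by 14-3-3 proteins. When cAMP activates protein kinase A, the kinases are inhibited, and when calcium activates calcineurin the coactivators are dephosphorylated. The CRTC proteins then enter the nucleus and bind CREB at cAMP response elements (CRE). Sik1 is itself a CREB target, and Crem has an internal promoter that yields the repressor ICER. In the hippocampus this pathway is known for gene activation after neuronal activity and for memory storage.

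The CRE is the sequence feature through which CREB acts, so the promoters of members were searched for it in the RefSeq promoter table (GRCm38.p6, 250 bases before to 50 after the start of the gene). The table held 5 of the 8 members: Sik2, Sik3, Crtc1, Crtc3 and Creb1. Sik1, Crtc2 and Crem had no entry. The full element, TGACGTCA, was in 1.79% of the 32851 promoters of the table, and its shorter core, TGACG or its reverse complement CGTCA, in 20.8% (the full element contains the core). The full element was found in 0 of the 5 promoters. The core was found in those of Sik2 and Sik3, which are printed below with the core in capitals. These matches describe the letters only.
Sik2, chr9:51009024-51009323, minus strand: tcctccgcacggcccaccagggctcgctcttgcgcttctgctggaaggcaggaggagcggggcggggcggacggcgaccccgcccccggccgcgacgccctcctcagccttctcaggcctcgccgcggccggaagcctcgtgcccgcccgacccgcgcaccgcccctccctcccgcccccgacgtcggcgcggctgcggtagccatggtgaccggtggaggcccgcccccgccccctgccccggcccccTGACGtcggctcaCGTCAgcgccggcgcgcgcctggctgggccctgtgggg
Sik3, chr9:46012570-46012869, plus strand: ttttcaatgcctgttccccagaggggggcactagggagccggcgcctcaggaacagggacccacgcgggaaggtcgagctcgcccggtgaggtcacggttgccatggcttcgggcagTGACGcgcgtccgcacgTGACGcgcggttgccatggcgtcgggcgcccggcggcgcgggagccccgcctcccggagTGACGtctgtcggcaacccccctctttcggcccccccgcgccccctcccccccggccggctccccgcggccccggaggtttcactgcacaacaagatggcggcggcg
Sik2 had 2 copies of the core, starting at -1 and 13 from the gene start, and Sik3 had 3 copies, starting at -133, -116 and -57.

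Hippocampal neuron markers were present: 11 of 12 such genes were measured and all 11 were well above background on 16 of 16 arrays. For marker scores each gene was centred over the arrays and then averaged over its list. In the striatal score 1 array stood apart. SAM/P-8 CCH replicate 4 had a striatal score of 3.64, against -0.35 to 0.16 on the other SAM/P-8 CCH arrays (10 of 12 striatal markers measured, 8 of them well above background on all arrays). Choroid plexus scores ranged from -3.20 to 1.76 over all arrays and varied widely within each group. Red blood cell scores were 1.93 and 2.66 on SAM/P-8 control replicates 1 and 2, and -1.11 to 0.30 on all other arrays (3 of 5 markers measured). The part of these scores in the differences of the family was not tested. For family probes called or close to the threshold, values without SAM/P-8 CCH replicate 4 are given where they bear on the call.

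Over the family, 4 of the 15 tested probes were called for the strain difference on the control diet, 3 of them higher and 1 lower in SAM/P-8. Of all probes 13.8% were called, 6.01% higher and 7.79% lower. With CCH 4 of 15 were called, again 3 higher and 1 lower, beside 13.5% of all probes (6.4% higher and 7.08% lower). The lines did not overlap for 6 of the 15 probes on the control diet, beside 19.5% of all probes, and for 5 on the CCH diet, beside 20.6%. The median difference of the 15 probes was 0.11 on the control diet, beside -0.02 for all probes. For the CCH effect 0 of 15 probes were called in SAM/P-8, beside 0.862% of all probes, and 0 of 15 in SAM/R-1, beside 0.114%. For the CCH effect averaged over the lines 1 of 15 was called, the Sik2 probe, which was higher, beside 4.16% of all probes (2.08% higher).

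Sik1, the inducible member of the kinase family, was lower in SAM/P-8 than in its counterpart on both diets. On the control diet its levels were -1.85, -2.58, -2.15 and -1.78 in SAM/P-8 and -1.37, -1.26, -1.50 and -1.74 in SAM/R-1. The groups did not overlap, although the nearest arrays of both lines were close. The difference was -0.62 ± 0.17 (SE, n = 4 and 4), or 1.54-fold lower in SAM/P-8, with a limma adjusted p of 0.0265. With CCH the levels were -1.46, -2.16, -1.77 and -1.93 in SAM/P-8 and -1.09, -1.20, -0.96 and -1.12 in SAM/R-1. Again every SAM/P-8 array lay below every SAM/R-1 array. There Sik1 was 1.67-fold lower in SAM/P-8 (difference -0.74 ± 0.17, limma adjusted p = 0.011).

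The order of the Sik1 group means was SAM/R-1 CCH at -1.09 ± 0.10, SAM/R-1 control at -1.47 ± 0.21, SAM/P-8 CCH at -1.83 ± 0.30 and SAM/P-8 control at -2.09 ± 0.37 (SD, n = 4 each). The ranges of SAM/R-1 control and SAM/P-8 CCH overlapped, as did those of the SAM/P-8 groups. The spread was wider in SAM/P-8 on each diet. Without SAM/P-8 control replicate 2, the lowest array, the control-diet difference was -0.46 and its limma adjusted p 0.0732. The call was also lost without SAM/P-8 control replicate 3 (limma adjusted p = 0.0608). It was lost, too, on leaving out SAM/R-1 control replicate 1, 2 or 3 (limma adjusted p = 0.0649, 0.0768 and 0.0558). On the CCH diet it was past the threshold with every array left out in turn, including SAM/P-8 CCH replicate 4 (-0.70, limma adjusted p = 0.0305).

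Sik1 did not pass the test for CCH. Its level was higher on the CCH diet by 0.26 ± 0.17 in SAM/P-8, where the groups overlapped (limma adjusted p = 0.427). In SAM/R-1 the CCH arrays lay above all control arrays, and the difference was 0.38 ± 0.17 (limma adjusted p = 0.449). The average over the lines was 0.32 ± 0.12 with a 95% interval of 0.06 to 0.58 (limma adjusted p = 0.137). The lines' CCH effects differed by -0.11 ± 0.24, within the error.

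Sik2, the isoform studied for its part in the survival of neurons and in metabolic tissues, was the member that rose with CCH. In SAM/P-8 its levels were -2.40, -2.50, -2.60 and -2.18 on the CCH diet and -2.90, -3.45, -3.53 and -2.89 on the control diet. In SAM/R-1 they were -2.54, -2.62, -2.41 and -2.53 on the CCH diet and -2.65, -3.10, -3.54 and -3.57 on the control diet. The CCH arrays lay above the control arrays in both lines, with SAM/R-1 control replicate 1 just below the CCH range. Of all probes, 0.617% were higher without overlap in both lines. The averaged difference was 0.73 ± 0.14 (SE, n = 8 and 8), 1.66-fold higher on CCH, with a 95% interval of 0.44 to 1.02 and a limma adjusted p of 0.0171.

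Within a line Sik2 missed the threshold. In SAM/P-8 it was 1.71-fold higher on CCH (0.77 ± 0.19, limma adjusted p = 0.0727). In SAM/R-1 it was 1.61-fold higher on CCH (0.69 ± 0.19, limma adjusted p = 0.207). The effects differed between the lines by 0.09 ± 0.27, with a 95% interval of -0.50 to 0.67. Without SAM/P-8 CCH replicate 4, the highest array, the averaged difference was 0.69 (limma adjusted p = 0.0329).

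By group mean, Sik2 was highest in SAM/P-8 CCH at -2.42 ± 0.18, followed by SAM/R-1 CCH at -2.53 ± 0.09, SAM/P-8 control at -3.19 ± 0.35 and SAM/R-1 control at -3.21 ± 0.43 (SD, n = 4 each). The order followed diet, and the lines overlapped on each diet. The strain difference was 0.02 ± 0.19 on the control diet and 0.11 ± 0.19 on the CCH diet, and neither passed the test. Control arrays were more spread than CCH arrays in both lines.

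**Figure D1:**
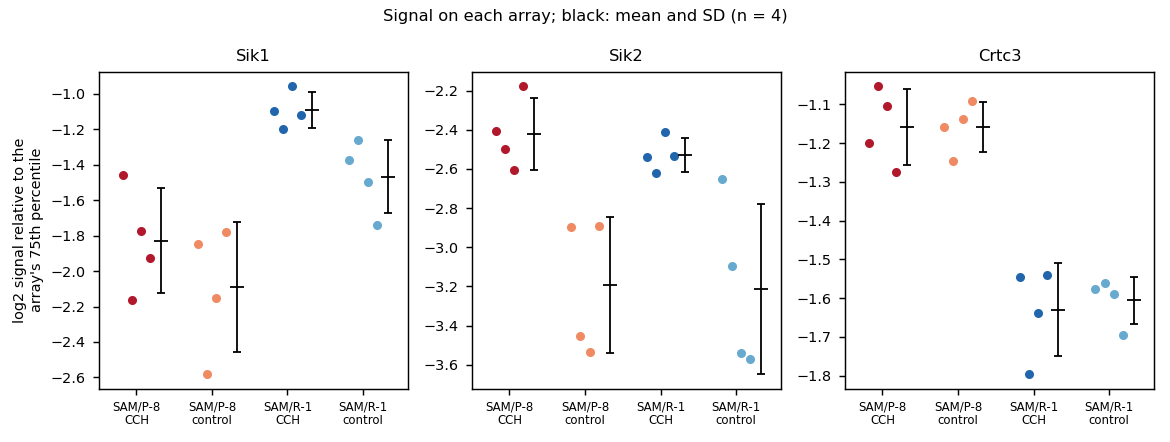
Log2 signal relative to the 75th percentile of the array for Sik1, Sik2 and Crtc3 in the 4 groups; each point is an array, and black marks give the mean and SD (n = 4). Sik1 is lower in SAM/P-8 on both diets, Sik2 is higher on CCH in both lines, and Crtc3 separates the lines, with all 8 SAM/P-8 arrays above all SAM/R-1 arrays.

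Sik3, a broadly expressed kinase of the family known for roles in sleep need and metabolism, had 3 probes, and none was called in any of the 6 comparisons. Probe 1 read 5.01, 4.99, 4.98 and 5.25 for SAM/P-8 mice and 4.86, 4.98, 4.96 and 4.97 for SAM/R-1 mice, both fed CCH. For mice fed the control diet it read 4.97, 5.12, 4.98 and 5.07 in SAM/P-8 and 4.89, 4.86, 4.85 and 4.89 in SAM/R-1. The SAM/P-8 arrays lay above those of SAM/R-1 on each diet, by 0.16 ± 0.06 on the control diet (limma adjusted p = 0.0959) and by 0.12 ± 0.06 on the CCH diet (limma adjusted p = 0.22). Without SAM/P-8 CCH replicate 4 the control-diet difference kept its size, and its limma adjusted p was 0.0258. Probe 2 ranged from -2.88 to -2.54 and probe 3 from -3.02 to -2.55 over the 16 arrays, and their lines overlapped on both diets. The averaged CCH effect was between 0.02 and 0.05 for the 3 probes, and the 95% intervals ran from -0.09 to 0.14 at the widest.

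Crtc3, a coactivator of CREB, was higher in SAM/P-8 on both diets. On the control diet its levels were -1.16, -1.25, -1.14 and -1.09 in SAM/P-8 and -1.58, -1.56, -1.59 and -1.69 in SAM/R-1. With CCH they were -1.20, -1.05, -1.10 and -1.27 in SAM/P-8 and -1.55, -1.80, -1.64 and -1.54 in SAM/R-1. Every SAM/P-8 array was above every SAM/R-1 array, whatever the diet. Crtc3 was 1.36-fold higher in SAM/P-8 on the control diet (0.45 ± 0.07, limma adjusted p = 0.00028). On the CCH diet it was 1.39-fold higher (0.47 ± 0.07, limma adjusted p = 0.000186).

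Crtc3 showed no detectable response to CCH. The CCH effect was 0.00 ± 0.07 in SAM/P-8 and -0.02 ± 0.07 in SAM/R-1, and the averaged effect had a 95% interval of -0.11 to 0.09. Its level averaged -1.16 ± 0.10 for SAM/P-8 mice on CCH and -1.16 ± 0.06 for those on the control diet, and -1.63 ± 0.12 for SAM/R-1 mice on CCH and -1.61 ± 0.06 for those on the control diet (SD, n = 4 each). The diets overlapped within each line. A single probe measured Crtc3. A difference in RNA level and a difference between the lines in the sequence under the probe therefore cannot be told apart. In the strain comparisons this holds for Sik1, Sik2 and Crtc2 too.

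Crtc2, the coactivator best known from glucose production in the liver, was not called in any comparison. It read 0.96, 0.81, 0.91 and 0.84 for SAM/P-8 mice and 0.99, 0.99, 1.05 and 0.94 for SAM/R-1 mice fed CCH. For those fed the control diet it read 1.13, 0.76, 1.02 and 0.88 in SAM/P-8 and 0.95, 1.07, 1.03 and 1.08 in SAM/R-1. The lines overlapped on both diets, and the diets in both lines. The strain difference was -0.09 ± 0.07 on the control diet and -0.11 ± 0.07 on the CCH diet. The averaged CCH effect was -0.05 ± 0.05, with a 95% interval of -0.16 to 0.05.

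Creb1, the CRE-binding activator itself, gave different answers from its 3 probes. Probe 2 had -3.95, -3.81, -3.98 and -3.79 in SAM/P-8 and -4.38, -4.33, -4.77 and -4.49 in SAM/R-1 on the control diet. With CCH it had -3.90, -4.07, -3.99 and -3.95 in SAM/P-8 and -4.03, -4.08, -3.98 and -4.17 in SAM/R-1. The SAM/R-1 control arrays were the lowest of all, and the other 3 groups lay close together. On the control diet the probe was 1.52-fold higher in SAM/P-8 (0.61 ± 0.09, limma adjusted p = 0.000176), and on the CCH diet the difference was 0.09 ± 0.09 (limma adjusted p = 0.546). Probe 2 was far dimmer than probe 1, though well above background on all 16 arrays. With normexp background correction and quantile normalization its control-diet difference was 0.31.

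The CCH effect on Creb1 probe 2 was -0.10 ± 0.09 in SAM/P-8 and 0.42 ± 0.09 in SAM/R-1. The SAM/R-1 value missed the threshold (limma adjusted p = 0.084) although its groups did not overlap. Both comparisons of this probe that stood out use the same SAM/R-1 control arrays. For the strain by diet interaction 0 of 15 family probes were called in limma, beside 0.172% of all probes, and 1 had an unadjusted p under 0.05, as did 5.61% of all probes. That 1 was Creb1 probe 2, at -0.52 ± 0.12 (limma adjusted p = 0.227).

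Neither of the other Creb1 probes was called. Probe 1, printed as 10 spots on each array, read 0.78, 0.60, 0.65 and 0.70 in SAM/P-8 and 0.57, 0.57, 0.53 and 0.51 in SAM/R-1 among mice without CCH. Among mice given CCH it read 0.78, 0.73, 0.88 and 0.74 in SAM/P-8 and 0.80, 0.63, 0.79 and 0.65 in SAM/R-1. As for probe 2, the SAM/R-1 control arrays lay below the other 12. Probe 1 was higher in SAM/P-8 by 0.14 ± 0.06 on the control diet (limma adjusted p = 0.128) and by 0.07 ± 0.06 on the CCH diet (0.483), and higher on CCH by 0.17 ± 0.06 in SAM/R-1 (0.281). Its 10 spots had an SD of 0.03 to 0.05 within an array (median 0.04), below the SD between replicates in all groups but SAM/R-1 control. Its averaged CCH effect was 0.14 ± 0.04 (limma adjusted p = 0.0638). Probe 3 differed between the lines by 0.00 ± 0.12 on the control diet, with a 95% interval of -0.25 to 0.26.

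Crem, which encodes activator and repressor forms of a CREB relative, had 6 probes. Probes 1 to 5 carry 1 RefSeq transcript and were well above background on all 16 arrays. Probe 6, for another transcript, was well above background on 0 of 16 arrays and was not tested. Probe 2 had -0.40, -0.26, -0.32 and -0.35 in SAM/P-8 and -0.52, -0.75, -0.75 and -0.63 in SAM/R-1 on the control diet. With CCH it had -0.14, -0.29, -0.17 and -0.23 in SAM/P-8 and -0.54, -0.64, -0.39 and -0.64 in SAM/R-1. The lines did not overlap on either diet.

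Crem probe 2 was 1.26-fold higher in SAM/P-8 on the control diet (0.33 ± 0.07, limma adjusted p = 0.00407) and 1.27-fold higher on the CCH diet (0.35 ± 0.07, limma adjusted p = 0.00319). Probe 1 was 1.18-fold higher in SAM/P-8 on the CCH diet (0.24 ± 0.07, limma adjusted p = 0.0372), where its levels were -0.17, -0.22, -0.14 and -0.06 in SAM/P-8 and -0.46, -0.47, -0.24 and -0.37 in SAM/R-1. This call was lost without any 1 of SAM/P-8 CCH replicates 1, 3 or 4 or SAM/R-1 CCH replicates 1, 2 or 4 (limma adjusted p 0.0618 to 0.1). On the control diet probe 1 differed by 0.16 ± 0.07 and was not called. Probes 3, 4 and 5 were not called on either diet, with differences of -0.03, 0.17 and 0.11 on the control diet and 0.15, 0.21 and 0.22 on the CCH diet. A difference between the lines in the sequence under probe 2 was not tested. Without SAM/R-1 CCH replicate 3, the highest array of its group, probes 4 and 5 were past the threshold on the CCH diet (0.30 and 0.28, limma adjusted p = 0.0321 and 0.041).

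The 5 Crem probes moved together from array to array. After the strain means were subtracted, their pairwise Pearson correlations over the 16 arrays were 0.78 to 0.93. These arrays share slides and diet groups, so the correlations are descriptions. The averaged CCH effect was positive for all 5, from 0.10 to 0.15, and none passed the test. In SAM/P-8 probe 1 was higher on CCH without overlap (0.16 ± 0.07, limma adjusted p = 0.25).

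**Figure D2:**
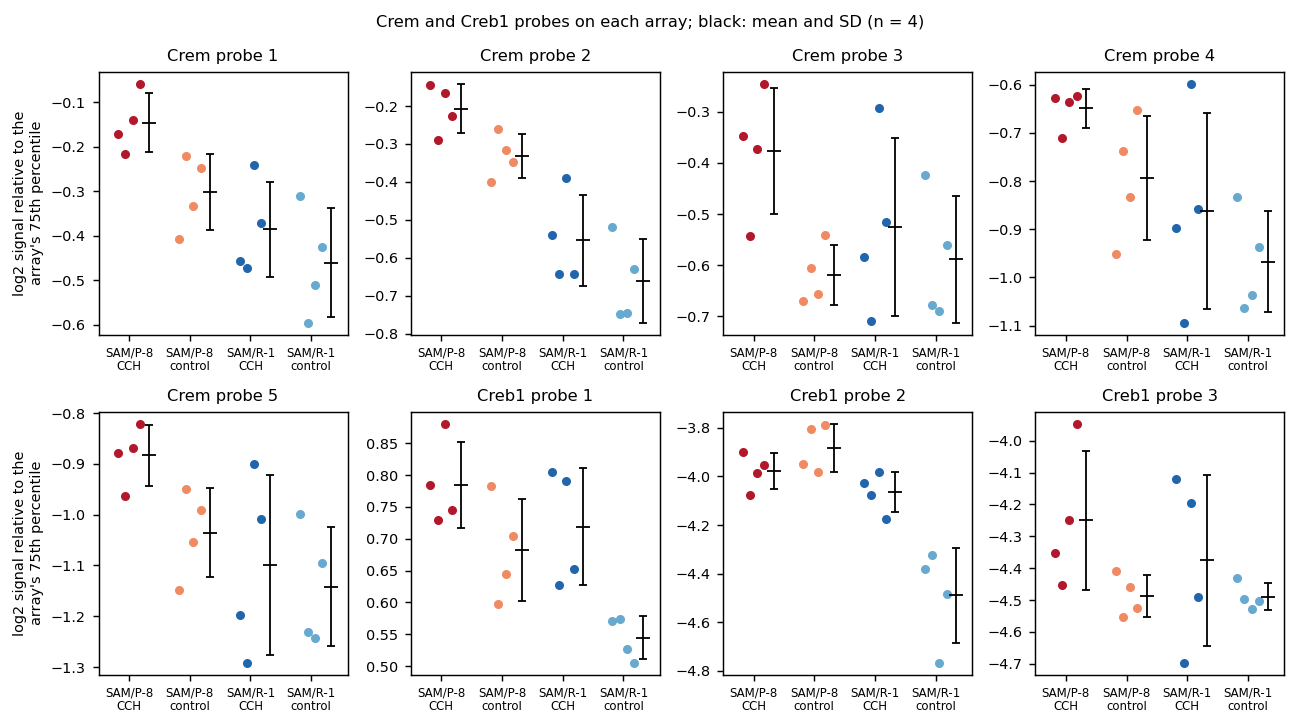
Log2 signal relative to the 75th percentile of the array for 5 Crem probes and 3 Creb1 probes in the 4 groups; points are arrays, and black marks give the mean and SD (n = 4). Crem probe 2 is higher in SAM/P-8 on both diets, and the SAM/R-1 control arrays of Creb1 probe 2 lie between -4.77 and -4.33, below the other 3 groups.

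**Figure D3:**
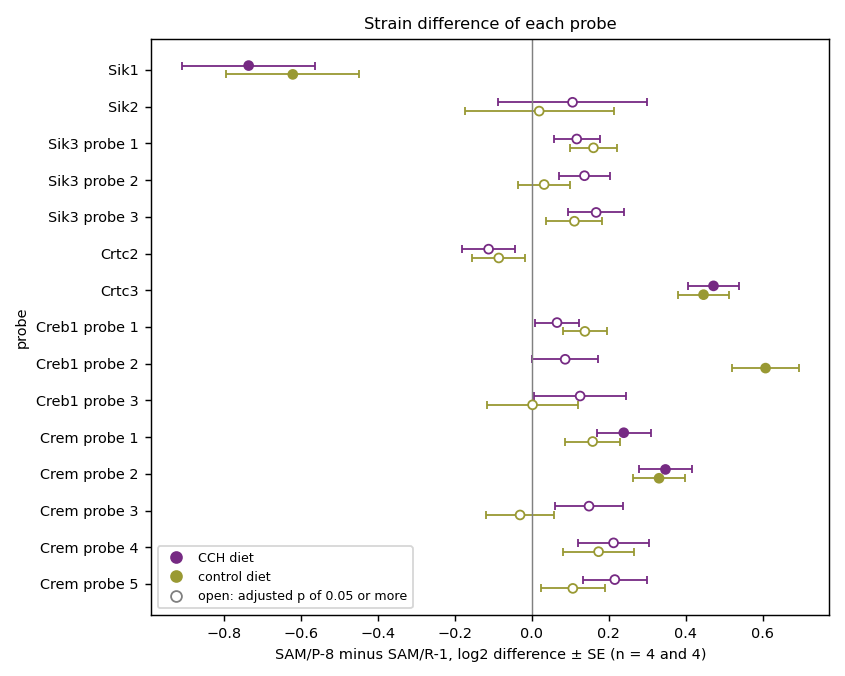
Strain difference, SAM/P-8 minus SAM/R-1, of the 15 tested probes on the CCH and control diets, as log2 difference ± SE (n = 4 and 4); filled points passed an adjusted p of 0.05. Sik1 lies at -0.74 and -0.62, Crtc3 at 0.47 and 0.45, and Creb1 probe 2 is filled only on the control diet.

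Sik1, Crtc3 and Crem probe 2 were called in the same direction on both diets, which 8.03% of all probes were. The lines also differed in endothelial and pericyte markers. That score was 0.07 to 0.43 in SAM/P-8 and -0.20 to 0.05 in SAM/R-1 on the CCH diet, and 0.08 to 0.57 in SAM/P-8 and -0.56 to -0.24 in SAM/R-1 on the control diet. All 8 of those markers were measured and well above background on all arrays. On the CCH diet 3 other scores did not overlap either: meninges and fibroblasts at 0.04 to 0.63 in SAM/P-8 and -0.37 to -0.05 in SAM/R-1, microglia at 0.01 to 0.17 and -0.13 to -0.0024, and astrocytes at 0.02 to 0.08 and -0.10 to 0.01. These 3 overlapped between the lines on the control diet. The part of all 4 lists in the strain differences of the family was not tested.

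Genes next to a member on its chromosome were examined after its values were seen. Of the 10 measured genes on either side of Crtc3, 1 was called higher in SAM/P-8 on the control diet, Prc1 at 0.35, and 1 lower on the CCH diet, Furin at -0.25. Around Sik1 2 of 20 neighbours were called higher and 3 lower on the control diet, and 0 higher and 1 lower on the CCH diet. The nearest measured gene on 1 side of Sik1, the lens crystallin Cryaa, was lower in SAM/P-8 on the control diet (-1.04 ± 0.28, limma adjusted p = 0.0233) and was not called on the CCH diet (-0.47, limma adjusted p = 0.302). Rrp1b, the nearest on the other side, was also lower on the control diet (-0.34 ± 0.11, limma adjusted p = 0.0423). On the CCH diet Rrp1b was not called (-0.26, limma adjusted p = 0.119). The 2 neighbours called higher on the control diet were Pknox1 (0.39 ± 0.06, limma adjusted p = 0.000225) and Ndufv3 (0.20 ± 0.06, limma adjusted p = 0.0282). Neither was called on the CCH diet. Over all genes 12.8% were called on the control diet (6.17% higher and 6.66% lower) and 12.7% on the CCH diet (6.13% and 6.52%).

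For CCH within a line, limma called 0 of the 15 family probes. At an unadjusted p under 0.05 there were 3 of 15 in SAM/P-8, Sik2 and Crem probes 1 and 3, beside 19.1% of all probes. In SAM/R-1 there were 4, Sik1, Sik2 and Creb1 probes 1 and 2, beside 10.9%. Groups did not overlap for 2 of 15 probes in SAM/P-8, beside 9.77% of all probes, and for 4 of 15 in SAM/R-1, beside 8.72%. The averaged CCH effect was positive for 13 of 15 probes, the exceptions being Crtc2 and Crtc3. Its median over the 15 was 0.12, beside -0.01 for all probes. Probes of the same gene, as for Crem, Sik3 and Creb1, are not separate evidence. The strain comparisons and the CCH comparisons share arrays and are not independent of each other.

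**Figure D4:**
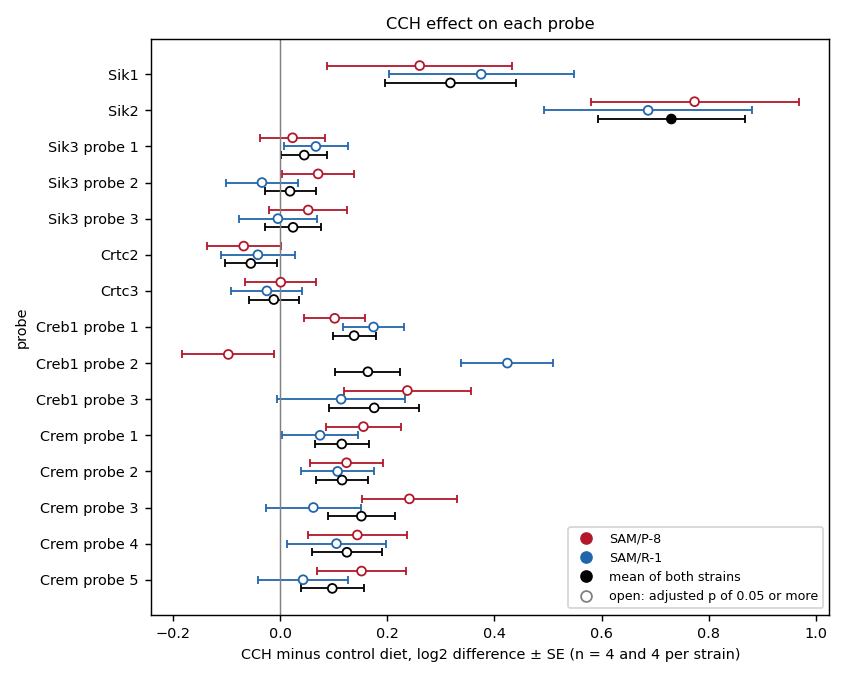
CCH diet minus control diet for the 15 tested probes in SAM/P-8, in SAM/R-1 and averaged, as log2 difference ± SE (n = 4 and 4 per line); filled points passed an adjusted p of 0.05. Sik2, at 0.77 in SAM/P-8, 0.69 in SAM/R-1 and 0.73 on average, is the highest, and only its average is filled.

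The arrays were also searched for genes whose levels followed a member most closely over the 16 arrays, after strain means were subtracted. Among 13458 genes, Sik1 was followed most closely by Maff (Pearson r = 0.91), Zfp592 (0.89), Gem (0.88), Zfp36l1 (0.87) and Trim16 (0.86). Maff encodes a small MAF transcription factor, and Gem a small GTP-binding protein of the RGK family. For Crem, represented by its brightest probe, they were Klhl7 (0.90), Cacybp (0.89), Spry2 (0.89), Zhx2 (0.88) and Rnf144a (0.88). For Sik2, added after its values were seen, they were Mxi1 (0.92), Gpc6 (0.91), Coq10b (0.91), Clic5 (0.91) and Zfp516 (0.91). Sik1 and Sik2 followed each other with r = 0.72, and each followed Creb1 probe 1, with r = 0.78 and r = 0.74. Differences between diets and slides were left in, so a shift shared by diet or slide enters all of these correlations.

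The rest of the pathway was read from 7 gene lists, in which 97 of 104 genes were measured. For the averaged CCH effect 9 of the 97 were called higher and 2 lower, beside 1.58% and 2.58% of all genes (4.16% in all). Most of the higher ones were CREB target genes: 7 of the 22 measured rose and 0 fell, with a median difference of 0.24, beside -0.02 over all genes. They were Per1, a clock repressor, Nr4a1, an orphan nuclear receptor, Arc, which acts at synapses, the AP-1 subunits Fos and Junb, Pcsk1, a prohormone convertase, and Ppargc1a, a coactivator of mitochondrial genes. The list overlaps groups of activity-induced genes already known to stand out in these arrays, so its direction is not independent evidence.

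Per1 read 2.66 to 3.00 for SAM/P-8 mice on CCH and 2.16 to 2.65 for those on the control diet, and 2.70 to 2.99 for SAM/R-1 mice on CCH and 2.30 to 2.54 for those on the control diet. In each line the CCH arrays lay above the control arrays. Its averaged effect was 0.45 ± 0.08 (limma adjusted p = 0.0102). Arc rose by 0.56 ± 0.13 (0.0326), Nr4a1 by 0.54 ± 0.12 (0.0294) and Fos by 0.54 ± 0.14 (0.0477), all as averaged log2 differences with limma adjusted p in parentheses. The CCH and control ranges of these 3 overlapped in both lines. CCH replicate 2 was the lowest of its group in SAM/P-8, and CCH replicate 1 in SAM/R-1. With an array left out, Arc and Nr4a1 were each past the threshold on average in 7 of 16 settings, and Fos in 4. Their limma adjusted p went up to 0.0667, 0.061 and 0.0918. Per1 was past it in 16 of 16 (limma adjusted p up to 0.0258).

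Within a line 0 of the 22 CREB targets were called, in SAM/P-8 with 7 at an unadjusted limma p under 0.05 and a median of 0.26, and in SAM/R-1 with 10 and a median of 0.27. Of all genes 18.5% had such a p in SAM/P-8 and 11.2% in the other line, while 0.788% and 0.104% were called. The count of 7 CREB targets called for the averaged CCH effect ranged from 1 to 8 with single arrays left out. It was 1 without SAM/P-8 CCH replicate 1, SAM/P-8 control replicate 2 or 3, or SAM/R-1 control replicate 3. It was 2 without SAM/P-8 CCH replicate 3, SAM/R-1 CCH replicate 3 or 4, or SAM/R-1 control replicate 4. It was 3 without SAM/R-1 control replicate 2. It was 6 without SAM/P-8 CCH replicate 4. The hippocampal neuron score of SAM/P-8 was -0.32 to 0.23 with CCH and 0.04 to 0.30 without it, and that of SAM/R-1 was -0.18 to -0.10 with CCH and -0.09 to 0.05 without it. In SAM/R-1 the endothelial and pericyte score also lay apart by diet, at -0.20 to 0.05 with CCH and -0.56 to -0.24 without it. In SAM/P-8 that score overlapped between the diets. The part of both scores in the CCH effects was not tested.

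**Figure D5:**
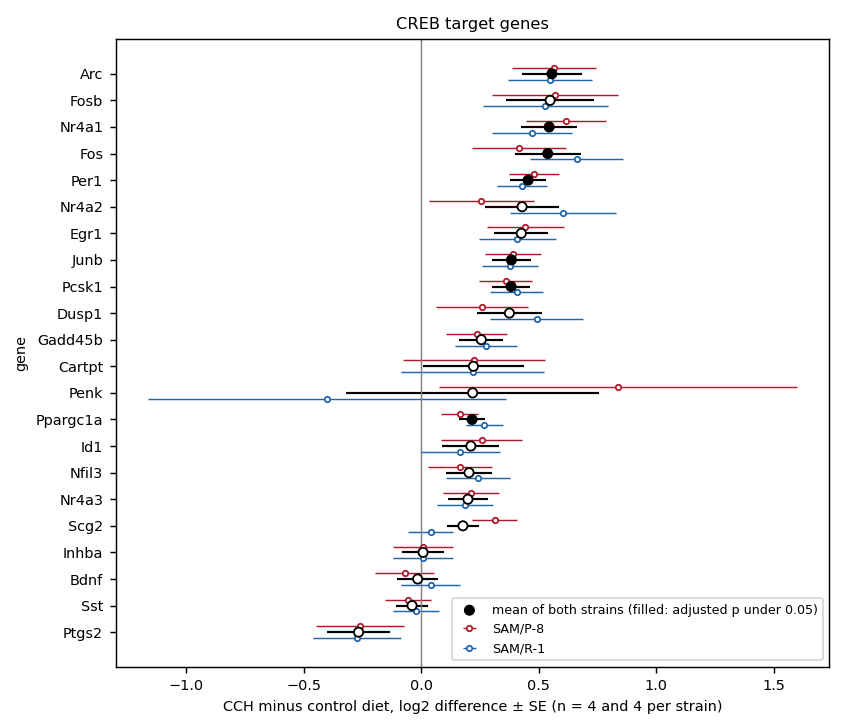
CCH diet minus control diet for the 22 measured CREB target genes, averaged over the lines (black), in SAM/P-8 (red) and in SAM/R-1 (blue), as log2 difference ± SE (n = 4 and 4 per line); filled black points passed an adjusted p of 0.05. The average is positive for 19 of 22 genes, and Bdnf, Sst and Ptgs2 lie below 0.

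Between the lines 0 and 1 of the CREB targets were called on the control and CCH diets. On the control diet 0 of 22 were called in limma, with 2 at an unadjusted p under 0.05 (26.4% of all genes had one), and their median difference was 0.01. Ppargc1a, at 0.22, and Sst, which encodes somatostatin, at -0.23, had the smallest p (limma adjusted p = 0.0786 and 0.142). On the CCH diet 1 was called, Scg2, which encodes the granule protein secretogranin II, higher in SAM/P-8 by 0.41 ± 0.10 (limma adjusted p = 0.0103), beside 12.7% of all genes. Without SAM/P-8 CCH replicate 4 it was 0.33 (limma adjusted p = 0.0278).

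Among CREB kinases, partners and relatives 1 of 18 genes was called higher in SAM/P-8 and 1 lower on the control diet, beside 6.17% and 6.66% of all genes. On the CCH diet 0 were higher and 4 lower, beside 6.13% and 6.52%. The CCH-diet count was 0 without SAM/R-1 CCH replicate 3, 1 without SAM/R-1 CCH replicate 4 or SAM/P-8 CCH replicate 1 or 3, and 2 without SAM/P-8 CCH replicate 2, SAM/P-8 control replicate 2 or 4, or SAM/R-1 control replicate 1 or 2. The control-diet count was 1 without SAM/P-8 control replicate 1 or 4 or SAM/R-1 control replicate 4, and 3 without SAM/P-8 control replicate 3 or SAM/P-8 CCH replicate 4. Ep300, a histone acetyltransferase that binds CREB with Crebbp, was higher in SAM/P-8 on the control diet by 0.40 ± 0.12 (limma adjusted p = 0.0342), and a second probe was higher too (0.33, 0.027). It also rose with CCH on average, by 0.32 ± 0.08 (limma adjusted p = 0.047), with its second probe at 0.29 (0.0301). Rps6ka1, a ribosomal S6 kinase, was lower in SAM/P-8 on both diets (-0.26 and -0.17, limma adjusted p = 0.00289 and 0.0454), while its second probe was not called. With an array left out, Rps6ka1 was past the threshold in 16 of 16 settings on the control diet. On the CCH diet it was past the threshold in 4 of 16 (limma adjusted p up to 0.134). Camk2a, a calcium and calmodulin dependent kinase, Crebbp and Rps6ka4 were lower in SAM/P-8 on the CCH diet (-0.32, -0.27 and -0.15, limma adjusted p = 0.019, 0.0316 and 0.0479). These 3 calls were kept in 13, 11 and 2 of the 16 settings with an array left out. Camk2a also fell with CCH on average (-0.23, limma adjusted p = 0.0464), and its second, more variable probe was not called in either comparison. Camk2a also belongs to the hippocampal neuron markers, so its values and that score are not separate readings. With SAM/P-8 CCH replicate 4 left out, Camk2a was still called for the strain difference under CCH (-0.25, limma adjusted p = 0.0466), and Crebbp was not (-0.27, 0.0555). The averaged effects of Ep300 and Camk2a were each past the threshold in 3 of the 16 settings with an array left out (limma adjusted p up to 0.0942 and 0.0926), beside 4.16% of all genes called in the averaged comparison.

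Among the proteins that set where the CRTC coactivators lie, calcineurin and 14-3-3 genes, 1 of 13 was called higher and 3 lower in SAM/P-8 on the control diet, beside 6.17% and 6.66% of all genes. The count of 4 was 0 without SAM/R-1 control replicate 4 and 2 without SAM/P-8 control replicate 1, 2 or 3. Under CCH limma called 0 of 13, with 3 at an unadjusted p under 0.05, beside 27.3% of all genes. Ppp3r1, the regulatory subunit of calcineurin, was lower on its brightest probe (-0.59, limma adjusted p = 0.0176), while its other probes lay at 0.08 and -0.06. Ppp3cc, a catalytic subunit, and Ywhaz, a 14-3-3 protein, were lower (-0.22 and -0.27, limma adjusted p = 0.0201 and 0.0208), each with a second probe that was not called. Rcan1, which inhibits calcineurin, was higher on its brightest probe (0.18, limma adjusted p = 0.0389), and its second probe was not called (0.21, limma adjusted p = 0.143). With CCH 0 of the 13 were called in limma on average, and 4 had an unadjusted p under 0.05, beside 24.3% of all genes. Ppp3r1 had the smallest p (-0.36, limma adjusted p = 0.0658).

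Upstream kinases and protein kinase A subunits gave 1 call in 10 measured genes over the 6 comparisons, Prkaca, the main catalytic subunit, lower in SAM/P-8 on the CCH diet (-0.22 ± 0.06, limma adjusted p = 0.0339), where 12.7% of all genes were called. That call was lost without SAM/P-8 CCH replicate 2 or 4 or SAM/R-1 CCH replicate 1, 2 or 4 (limma adjusted p up to 0.096). Of 16 genes of cAMP synthesis and breakdown 1 was called, Adcy3, an adenylyl cyclase, which rose with CCH on average (0.18 ± 0.04, limma adjusted p = 0.033; second probe 0.17, 0.0422), where 4.16% of all genes were called. It was lost without SAM/P-8 CCH replicate 1 or 3, SAM/R-1 CCH replicate 3 or 4, or control replicate 2 or 3 of either line (limma adjusted p up to 0.0681). Class IIa histone deacetylases and MEF2 factors, another set of salt-inducible kinase substrates and their partners, had 0 of 7 called in any comparison in limma. Of all genes 12.8% and 12.7% were called between the lines on the control and CCH diets, and 4.16% for the averaged CCH effect. At an unadjusted limma p under 0.05 there were 0 to 3 of the 7. There were 3 between the lines under CCH, beside 27.3% of all genes, and 0 for the averaged CCH effect, beside 24.3%. Hdac9 had the smallest p over the 6 comparisons, for the strain difference on the control diet (-0.36, limma adjusted p = 0.0701). Without SAM/P-8 control replicate 4, 1 of the 7 was called there. For the averaged CCH effect Hdac4 had the smallest p (-0.11, limma adjusted p = 0.271).

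Other AMPK-related kinases, the nearest relatives of the SIK genes, gave calls for Nuak2 and Snrk among 11 measured, with Melk set aside. Nuak2 fell with CCH in SAM/P-8 (-0.35 ± 0.08, limma adjusted p = 0.0495), a call lost in all but 2 of the settings with an array left out, and on average (-0.24 ± 0.05, limma adjusted p = 0.0288), beside 2.58% of all genes lower on average. The averaged call was lost without SAM/P-8 control replicate 2 or 3, SAM/R-1 CCH replicate 1 or 3, or SAM/R-1 control replicate 3 or 4 (limma adjusted p up to 0.0609). Snrk was higher in SAM/P-8 on the control diet on both of its probes (0.30 and 0.27, limma adjusted p = 0.0241 and 0.0334), beside 6.17% of all genes. Its brightest probe was not called without SAM/P-8 control replicate 1 or 4 or SAM/R-1 control replicate 2 or 3 (limma adjusted p up to 0.0723). Melk, a kinase of dividing cells, was well above background on 4 of 4 SAM/P-8 CCH arrays and 3 of 4 SAM/R-1 CCH arrays. On the control diet it was so on 1 of 4 SAM/P-8 arrays and 3 of 4 SAM/R-1 arrays. It passed the filter only through SAM/P-8 CCH, which favours a difference there, so its difference is not given as a result. No pathway gene was called for the strain by diet interaction in limma, beside 0.134% of all genes. An unadjusted p under 0.05 was found for 4 of 97, Melk among them, beside 4.8% of all genes.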

How the data were processed

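Total RNA of hippocampus was measured on 16 Cy3 arrays, 4 per group from the labels. The deposited files hold each spot's processed signal as an intensity, which the authors made with Agilent Feature Extraction 9.5.3.1 per the file headers, along with the spot's raw signal and local background, also intensity. Per the file headers the deposited flags, a unit of the type other, mark which spots exceeded background. The authors' deposited table of log2 values is centred per probe, and scanner values centred likewise correlated with it at 0.9997 or more, with column medians from -0.03 to 0.01. That match settled its scale and direction.

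The processed signal was taken as log2 minus the 75th percentile of the array, spots of a probe were averaged, and a probe was kept (29009 of 41174) if some group had it well above background on its 4 arrays. limma 3.58.1 in R 4.3.3 fitted 4 group means over 16 arrays with 12 residual degrees of freedom, for 6 contrasts, and was tested on simulated data. Benjamini-Hochberg adjustment ran over all probes kept. The number of arrays limits the precision. A pathway gene was read from the probe with the highest mean. The members and gene lists were chosen with earlier results of these data known. Per list and contrast, the text names up to 4 called genes by size of difference, or 2 by smallest p where none was called, plus those a count called for. Gene names came from RefSeq accessions; 24844 probes had one. Alternatives were quantile normalization, normexp with an offset of 50, the authors' table, other filters, a replicate block, a trended robust prior, and leaving out each array.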

Additional observations from a re-analysis of the deposited data

Results flagged for a closer look

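Of 60 groups of 4 arrays, 1 per tested probe and group, 4 held an array whose gap to the nearest other array was above Dixon's critical value for 4 samples, relative to the range; chance flags about 1 in 20. Sik3 probe 1 had 5.25 on SAM/P-8 CCH replicate 4, the array with the high striatal score, and 4.98 to 5.01 on the other 3 arrays of that group. Sik3 probe 1 also had 4.86 on SAM/R-1 CCH replicate 1, with 4.96 to 4.98 on the other 3. Sik3 probe 3 had -2.85 on SAM/P-8 control replicate 2, with -2.73 to -2.70 on the others. Crem probe 4 had -0.71 on SAM/P-8 CCH replicate 2, with -0.64 to -0.62 on the others. None of these probes was called in the fit over all arrays.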

How the results depend on the processing

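Under 23 alternatives, 16 of them leaving out an array, no called difference of a family probe changed sign. Crtc3 and Crem probe 2 on both diets, Sik1 on the CCH diet, Creb1 probe 2 on the control diet and the averaged Sik2 effect passed the threshold in 23 of 23; the last ranged from 0.49 to 0.82 (limma adjusted p 0.00809 to 0.0386). Creb1 probe 2 on the control diet ranged from 0.31, with normexp, to 0.66. Crem probe 1 on the CCH diet was also lost without a filter (0.0512). With quantile normalization 1 family probe was called for CCH in SAM/R-1, Creb1 probe 2 (0.48, limma adjusted p = 0.0446). Sik2 in SAM/P-8 passed without SAM/R-1 control replicate 1 (0.0487).

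Counts of all probes called moved by over 1.5 times as follows; the cause was not tested. For CCH in SAM/P-8, 250 became 145 with quantile normalization, 120 with normexp, 152 with no filter and 132 with the replicate block. For CCH in SAM/R-1, 33 became 6 with normexp, 17 with probes above background on all arrays, 20 with the replicate block and 9 with the trended prior. The averaged effect had 1206, and 3346 with no filter. The interaction had 50, then 32 with quantile normalization, 26 with normexp and 17 with the stricter filter. Leaving out each array gave 2973 to 4521 for the strain difference on the control diet (all arrays 4004), 2821 to 4158 on the CCH diet (3909), 72 to 438 for CCH in SAM/P-8, 2 to 43 in SAM/R-1, 297 to 2143 averaged and 35 to 55 for the interaction. Family probes called then numbered 3 to 5 and 3 to 6 for the strain difference on the control and CCH diets, 0 to 1 for CCH in SAM/P-8, 0 to 0 in SAM/R-1, 1 to 2 averaged and 0 to 0 for the interaction.

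The replicate numbers equal slide positions, and no clear pairing of samples by number was seen. Same-numbered arrays correlated between -0.25 and 0.30 in their deviations, and 6 of 24 pairs were above 0.1. Of 16 arrays, 3 correlated best with their own number. Correlations over all probes cannot show that a pairing or position effect was absent. With the replicate block Crem probe 1 on the CCH diet had an adjusted p of 0.0537.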
